A study of Mus musculus with 34 samples.

Results

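The imprinted pair Igf2 and H19 was followed across 4 chromatin targets in C2C12 cells, an established mouse myoblast line that fuses into muscle fibres on differentiation. Igf2 encodes insulin-like growth factor 2, a secreted growth factor. H19 is a long non-coding RNA gene and the host of the microRNA gene Mir675. Both members were found by symbol among 49550 annotated genes with bins. H19 lies at chr7:142575530-142578146 and Igf2 at chr7:142650768-142666816 (GRCm38), with 72.6 kb between them. The locus was taken from 100 kb beyond H19 to 150 kb beyond Igf2, which gave 342 bins of 1 kb out of 2631630 bins on the autosomes and X. The interval between the genes holds 72 of these bins and was treated apart. Its first 5 bins next to H19 were separated from the other 67.

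The libraries were made by multi-target chromatin integration labelling, in which antibodies on fixed cells carry DNA probes and a transposase sets each probe into the genome close to its target, so that sequencing reads out where the target sits. One pair of targets stained in the same cells was H3K4me3, which marks promoters in use, and CTCF, in 10000 and in 1000 cells. The other pair was H3K27ac, found at promoters and enhancers in use, and Pol2S2P, the elongating form of RNA polymerase II, in 1000 and in 100 cells. These 8 dual groups hold 3 libraries each. CTCF alone in 10000 cells and Pol2S2P alone in 1000 cells were stained in 2 libraries each. No treatment or genotype separates the groups, and all of them are the same cell line. No label places the replicates in separate cultures, so a p-value here measures the spread between libraries, which may be technical. Library totals ran from 719766 to 6653298 counts. Levels are given as density, the counts per kb divided by the library's own genome mean per kb, so that 1 is the genome mean. Both parental copies are counted together, so the allele a count comes from cannot be told, and fewer cells with a mark cannot be told apart from less of it per cell. Among the 9 myoblast markers, Vim (intermediate filament) stood at 50.4 ± 4.55 and Myf5 (myogenic factor) at 32.1 ± 1.97 in H3K4me3 at 10000 cells (SD, n = 3). The defining markers Myod1 and Pax7 stood at 1.13 ± 0.474 and 0.323 ± 0.0554 there, below the coding-gene median of 1.47. Of the marker lists in that group, 6 of 9 myoblast genes and 2 of 5 genes of differentiated muscle exceeded that median, as did 1 of 3 blood, 0 of 3 liver, 1 of 2 pluripotent, 1 of 3 neuron and 0 of 2 endothelium genes.

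In mammals Igf2 is expressed mainly from the paternal copy and H19 from the maternal copy. The imprinting control region lies a short way upstream of H19, on the Igf2 side. It binds the zinc-finger protein CTCF on the unmethylated maternal copy, where CTCF insulates Igf2 from enhancers beyond H19, and DNA methylation blocks CTCF on the paternal copy. In mice, a muscle enhancer of the pair has been placed on the far side of H19, near the non-coding gene Nctc1.

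The starts of Igf2 bear on the marks of active promoters, and the start of its neighbour Mrpl23 serves as the contrast. RefSeq (GRCm38.p6) gives 4 starts for Igf2, all on the minus strand, and 1 for Mrpl23 on the plus strand. H19 has no entry in the promoter table. CpG pairs, the sites of DNA methylation in mammals, are in capitals in the 250 bases before 3 of these starts, each written 5′ to 3′. The Igf2 sequences lie at chr7:142658805-142659054 and chr7:142661272-142661521 (minus strand), and the Mrpl23 sequence at chr7:142532782-142533031 (plus strand).
Igf2, start at 142658804: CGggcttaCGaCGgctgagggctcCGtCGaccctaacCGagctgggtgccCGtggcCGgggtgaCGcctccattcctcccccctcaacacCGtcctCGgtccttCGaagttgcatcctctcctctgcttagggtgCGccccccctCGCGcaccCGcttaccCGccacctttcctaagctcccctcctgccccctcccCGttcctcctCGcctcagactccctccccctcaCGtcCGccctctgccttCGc
Igf2, start at 142661271: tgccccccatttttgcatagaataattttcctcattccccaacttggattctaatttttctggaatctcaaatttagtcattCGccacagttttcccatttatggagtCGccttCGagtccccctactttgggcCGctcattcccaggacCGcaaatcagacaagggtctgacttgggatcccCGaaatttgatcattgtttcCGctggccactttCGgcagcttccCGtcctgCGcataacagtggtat
Mrpl23, start at 142533032: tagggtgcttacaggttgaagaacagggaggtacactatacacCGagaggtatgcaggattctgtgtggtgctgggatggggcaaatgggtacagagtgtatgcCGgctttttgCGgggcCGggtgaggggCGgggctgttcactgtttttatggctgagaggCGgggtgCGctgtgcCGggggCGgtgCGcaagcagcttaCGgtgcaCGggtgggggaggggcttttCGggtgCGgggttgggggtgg
The Igf2 start at 142658804 has 24 CpG pairs in 300 bases (250 before and 50 after the start), more than 80.0% of 32851 promoters. The start at 142661271 has 14, that at 142657496 has 7 and that at 142666816 has 2, against 18 at Mrpl23 and a median of 7. A core of the CTCF motif (CC, 3 bases of any kind, AG, 2 bases of any kind, GGC, on either strand) had 0 matches in these 5 promoters and a match in 8.61% of all promoters. The GC box GGGCGG, on either strand, matched 2 of the 4 Igf2 promoters (starts at 142658804 and 142657496), the Mrpl23 promoter and 35.7% of all promoters. Summed over the 6 H3K4me3 libraries, the 1 kb bins that hold the Igf2 starts had 0 counts at 142658804, 1 at 142661271, 1 at 142657496 and 0 at 142666816. The bin of the Mrpl23 start had 32. The 3 Igf2 starts with 7 or more CpG pairs thus carried at most 1 H3K4me3 count each. A bin at the genome mean holds 0.274 to 0.75 counts in each of these 6 libraries, so such counts do not show absence of the mark.

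CTCF was concentrated beside H19. In the interval it stood high in 4 consecutive bins, chr7:142578421-142582420, which begin at the first bin beyond H19 on its upstream side. The control region lies on that side, and its bounds are not in the annotation used here. At 10000 cells the 3 dual CTCF libraries had densities of 3.19, 7.53 and 5.18 in the first of these bins, 11.2, 13.1 and 8.41 in the second, 15.4, 12.1 and 5.82 in the third, and 18.6, 18.6 and 20.1 in the fourth. At 1000 cells the fourth bin stood at 21.6, 11.3 and 12.9. The group means climbed from bin to bin away from H19, to 19.1 ± 0.847 in the fourth bin at 10000 cells and 15.3 ± 5.52 at 1000 cells (SD, n = 3 each). In the fifth bin the means were 1.6 ± 1.44 and 1.9 ± 2.58, as the plot of single bins shows. Over both cell numbers, the fourth bin had a mean density of 17.2, which 0.237% of all bins reach, and it ranked 2 in the locus. H3K4me3 had no count in the first bin in any of its 6 libraries. In the fourth bin H3K4me3 stood at 1.86, 1.33 and 7.26 at 10000 cells, below every CTCF library. H3K27ac was above the genome mean in the fourth bin in each of its 6 libraries, at 2.51, 2.62 and 2.72 in 1000 cells and 4.04, 6.08 and 4.54 in 100 cells, on 2 or 3 counts a library. Pol2S2P ran there from 0 to 3.33.

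**Figure D1:**
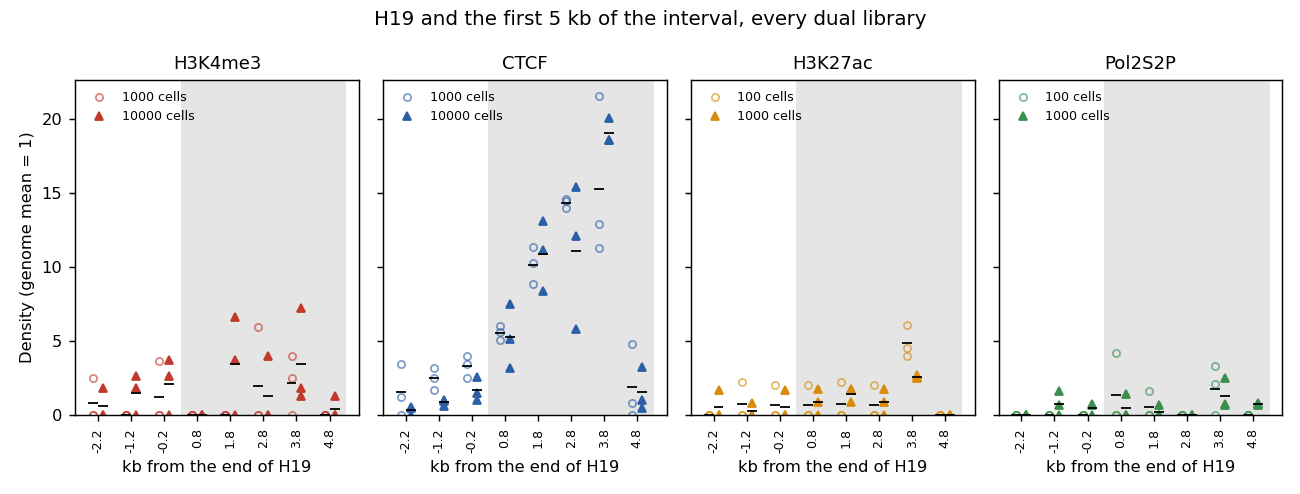
Density (genome mean = 1) per 1 kb bin over H19 and the first 5 kb of the interval (grey), against distance of the bin centre from the end of H19 nearest Igf2, for each of 24 dual libraries. Points are libraries and black lines are group means. Of the 4 targets, CTCF climbs across the first 4 grey bins, to means of 19.1 at 10000 and 15.3 at 1000 cells, and is low in the fifth.

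Across the whole interval, 46.9% ± 0.738 of CTCF counts at 10000 cells and 47.1% ± 1.32 at 1000 cells fell in the 5 bins next to H19 (SD, n = 3 each), which are 6.94% of its bins. With CTCF stained alone the share was 48.1% ± 4.4 (SD, n = 2). The 8 CTCF libraries lay between 45.0% and 51.2%. H3K4me3 placed 17 of 56 interval counts there at 10000 cells, 30.4% (exact Clopper-Pearson 95% interval 18.8% to 44.1%). At 1000 cells it placed 6 of 51 there, 11.8% (4.44% to 23.9%). H3K27ac placed 16.7% (10.5% to 24.6%) and 21.7% (10.9% to 36.4%) there at 1000 and 100 cells, and Pol2S2P 8.66% (4.4% to 15.0%) and 13.0% (4.94% to 26.3%). These intervals pool the libraries of a group and cover counting error alone.

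**Figure D2:**
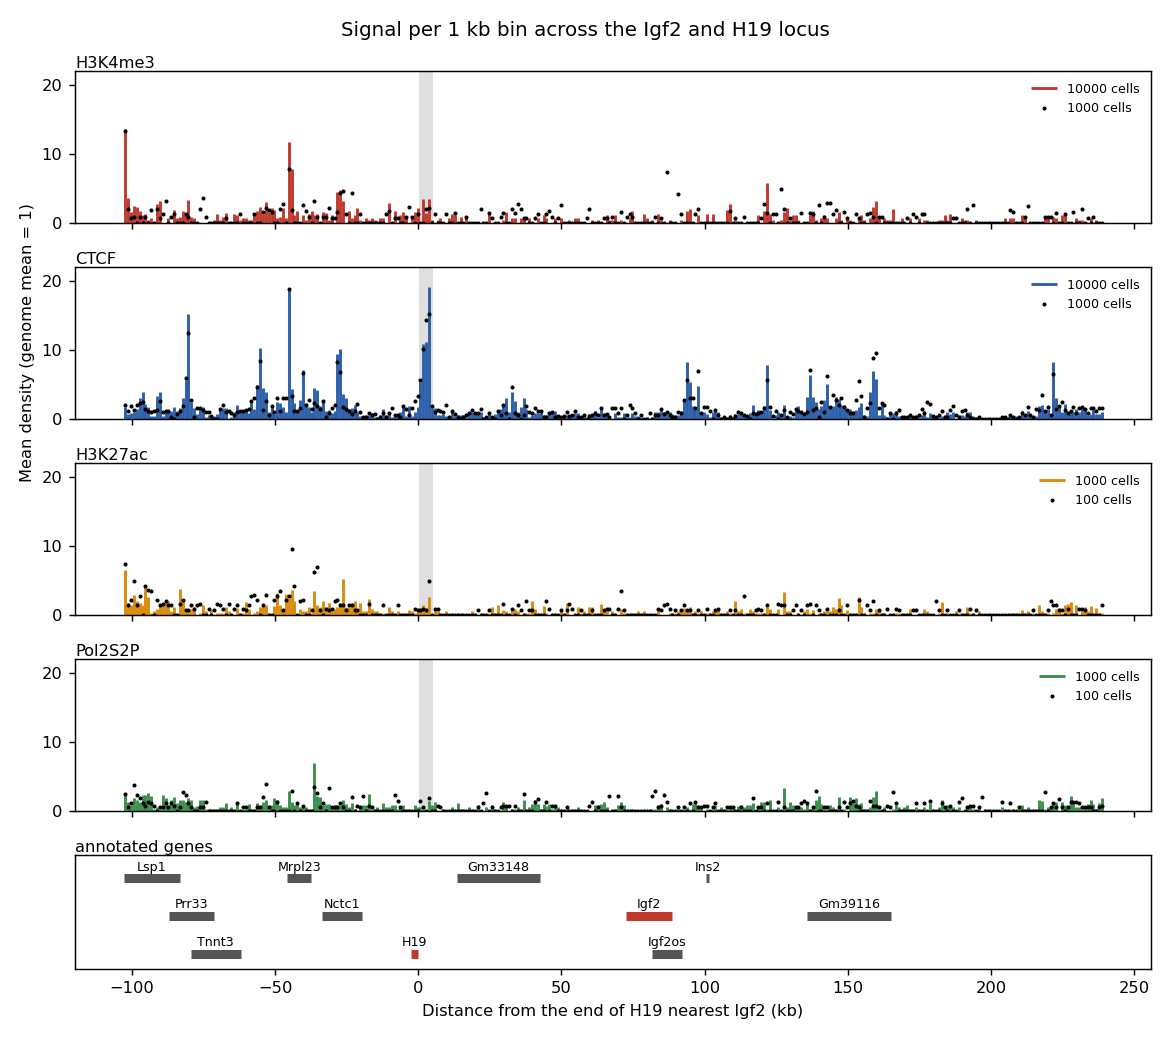
Mean density per 1 kb bin (genome mean = 1) across the locus for H3K4me3, CTCF, H3K27ac and Pol2S2P in dual libraries (n = 3 per group), against distance in kb from the end of H19 nearest Igf2. Bars are the higher and dots the lower number of cells, and the grey band is the first 5 kb of the interval. CTCF stands at 19.1 in the fourth bin of the band and at 18.8 at Mrpl23, while H3K4me3 reaches 13.6 in Lsp1 and 11.8 at Mrpl23.

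The H19 gene itself carried few counts of any target. Over its 3 bins, H3K4me3 had 4, 4 and 0 counts in the 3 libraries of 10000 cells and 1, 0 and 1 in those of 1000. CTCF had 5, 6 and 5 at 10000 cells and 5, 9 and 10 at 1000, for densities of 0.886 to 1.08 and 2.11 to 2.87. The CTCF density over H19 was therefore higher in each library of 1000 cells than in each of 10000, on 5 to 10 counts a library. H3K27ac had 5, 0 and 0 counts in the libraries of 1000 cells, so that 1 library held all of them. Pol2S2P had 2, 2 and 1 counts at 1000 cells and none at 100, where 3 counts over the group would have given a density of 0.597. With 1 kb added on each side, which brings in the first interval bin, CTCF over H19 stood at 2.01 ± 0.541 at 10000 cells, above 68.2% of coding genes. H3K4me3 stood at 0.851 ± 0.766 at 10000 cells, above 37.2%, H3K27ac at 0.579 ± 0.355 at 1000 cells, above 26.7%, and Pol2S2P at 0.404 ± 0.289 at 1000 cells, above 15.6% (SD, n = 3 each).

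The order of H19 group means with the margin was CTCF at 1000 cells (2.71), CTCF alone at 10000 (2.02), dual CTCF at 10000 (2.01), H3K4me3 at 1000 (0.877) and 10000 (0.851), H3K27ac at 1000 (0.579), Pol2S2P alone at 1000 (0.447), H3K27ac at 100 (0.421), and Pol2S2P at 1000 (0.404) and 100 (0.279). Neighbouring groups in that order overlapped, apart from CTCF at 1000 cells (lowest 2.28) and CTCF alone (highest 2.14). The lowest dual CTCF library at 10000 cells, 1.38, lay below the highest H3K4me3 library, 1.5.

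Igf2 lay below the coding-gene median in every group. With the margin, H3K4me3 at 10000 cells had 5, 4 and 3 counts and densities of 0.489, 0.281 and 0.287. CTCF at 10000 cells had 21, 13 and 21 counts and densities of 0.588, 0.344 and 0.715, so the groups overlapped. H3K27ac at 1000 cells stood at 0.353, 0.138 and 0.191, and Pol2S2P at 1000 cells at 0.304, 0.219 and 0.25. By group mean, Igf2 exceeded 18.7% of coding genes in H3K4me3 and 18.5% in CTCF at 10000 cells, and 8.73% in H3K27ac and 9.1% in Pol2S2P at 1000 cells. The order of means ran from H3K4me3 and CTCF at 1000 cells (0.616 and 0.605) through dual CTCF at 10000 (0.549), Pol2S2P at 100 (0.507), CTCF alone (0.499), H3K4me3 at 10000 (0.352), H3K27ac at 100 (0.337), Pol2S2P alone (0.279) and Pol2S2P at 1000 (0.258) to H3K27ac at 1000 (0.227). Libraries of neighbouring groups in that order overlapped throughout. One library decided the H3K4me3 value at 1000 cells. Replicate 2 had 12 counts over Igf2, against 1 and 3 in the others, and 11 of these fell in the bin chr7:142664421-142665420, which Igf2 shares with its antisense gene Igf2os. No other dual library had more than 2 counts in that bin. The Igf2 density was 1.26 in that library, and 0.192 and 0.395 in the other two.

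**Figure D3:**
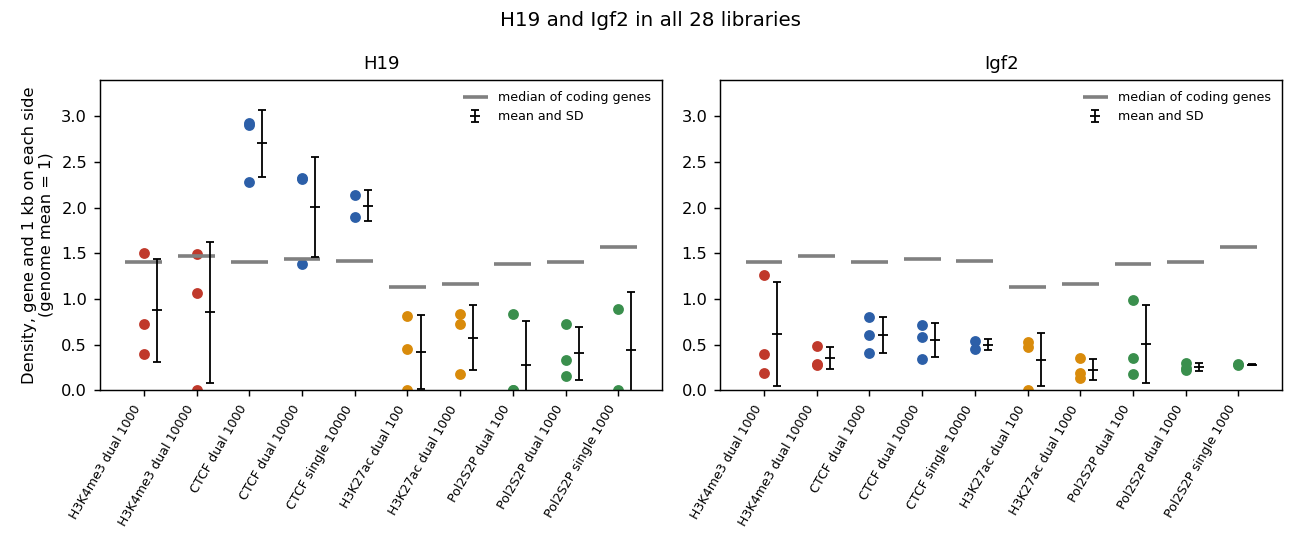
Density of H19 (left) and Igf2 (right), gene and 1 kb on each side, in all 28 libraries. Points are libraries, black marks give the mean and SD of each group, and grey lines give the median of 21627 coding genes in that group. The H19 means lie above the grey line in the CTCF groups, at 2.01 to 2.71, and the Igf2 means lie below it in each group.

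The regions were compared between the targets of a pair by exact two-sided permutation tests within number of cells (400 permutations, smallest possible p 0.005), adjusted over 12 tests. Same-numbered libraries of a pair are the readouts of 1 staining, so each region was also tested on the 6 pairs by an exact sign-flip permutation test (smallest possible p 0.0312). In the first 5 kb of the interval H3K4me3 had a mean density of 1.29, against 9.53 for CTCF, a difference of -8.24 (exact permutation p = 0.005, adjusted p = 0.02). H3K4me3 was higher in 0 of 6 same-numbered pairs, and the groups did not overlap. The H19-side flank held 1.19 for H3K4me3 and 2.05 for CTCF (difference -0.862, adjusted exact permutation p = 0.02, 0 of 6 pairs). The Igf2-side flank held 0.5 for H3K4me3 and 1.32 for CTCF (difference -0.816, adjusted exact permutation p = 0.02, 0 of 6 pairs). In the rest of the interval H3K4me3 stood at 0.422 and CTCF at 0.804 (difference -0.382, adjusted exact permutation p = 0.036), and the groups overlapped. H3K4me3 was higher there in 1 of 6 pairs, and the call was lost when library totals left out their top 1% of bins (adjusted exact permutation p = 0.09). The differences over H19 (1.05 in H3K4me3, 1.73 in CTCF, exact permutation p = 0.24) and over Igf2 (0.541 in H3K4me3, 0.594 in CTCF, exact permutation p = 0.81) did not pass. For H19 with 1 kb on each side the difference was -1.49 (adjusted exact permutation p = 0.024), where the margin holds the first bin of the CTCF rise. Taken as pairs, the first 5 kb of the interval and the 2 flanks had an adjusted exact sign-flip permutation p of 0.0938 each, and the rest of the interval one of 0.15. None of the 4 calls held. The first 5 kb and the 2 flanks had the smallest sign-flip p that 6 pairs allow, 0.0312 before adjustment. Their missed threshold follows from the small number of pairs, so the paired test cannot decide for them. H3K4me3 was thus called below CTCF in the 2 flanks and in both parts of the interval by the unpaired test alone. No like regions elsewhere in the genome were tested, so none of the 12 tests shows a trait particular to the locus. Over all bins with at least 10 counts the median log2 fold change of H3K4me3 over CTCF was -0.41 at 10000 and -0.35 at 1000 cells. In windows of 5 kb it was -0.21 and 0.04. Over the 2 gene bodies no difference was called by either test.

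On the H19 side H3K27ac lay above dual-stained Pol2S2P by the unpaired test alone. In the 100 kb flank there H3K27ac averaged 1.29 and Pol2S2P 0.858, a difference of 0.436 (exact permutation p = 0.01, adjusted p = 0.03, higher in 6 of 6 pairs). H3K27ac stood at 1.28, 1.13 and 1.19 in 1000 cells and 1.19, 1.52 and 1.45 in 100 cells, and Pol2S2P at 1.15, 0.8 and 1.06 in 1000 cells and 0.65, 0.718 and 0.776 in 100 cells. The groups did not overlap at 100 cells, and at 1000 cells the lowest H3K27ac library lay below the highest Pol2S2P library. Taken as pairs the difference had an adjusted p of 0.0938 by an exact sign-flip permutation test, and the call was lost. Its p before adjustment, 0.0312, was the smallest that 6 pairs allow, so the paired test cannot decide here. Pol2S2P stained alone in 1000 cells stood at 1.35 and 1.44 in this flank, above each of the 3 H3K27ac libraries of 1000 cells. In the first 5 kb of the interval H3K27ac averaged 1.29 and Pol2S2P 0.66 (exact permutation p = 0.05, adjusted p = 0.1, higher in 5 of 6 pairs). The rest of the interval (0.404 and 0.41), H19 (0.472 and 0.217), Igf2 (0.258 and 0.403) and the Igf2-side flank (0.427 and 0.536) gave adjusted exact permutation p values from 0.103 to 0.945.

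**Figure D4:**
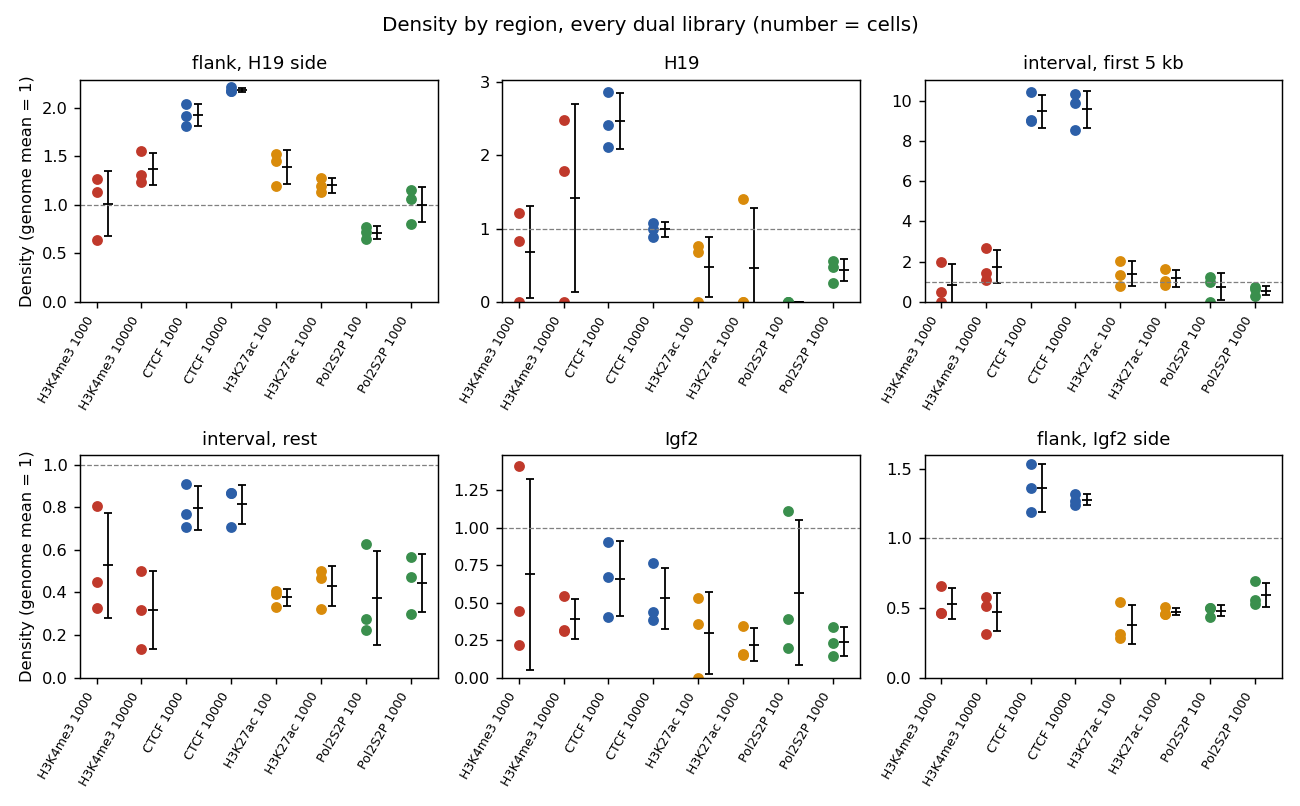
Density by region (genome mean = 1, dashed) in each of 24 dual libraries, by target and number of cells. Points are libraries, and black marks give the mean and SD (n = 3). The first 5 kb of the interval separates CTCF, between 8.54 and 10.4, from H3K4me3, between 0 and 2.67.

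Single bins were tested across the genome with edgeR's quasi-likelihood test and Benjamini-Hochberg adjustment over all bins. A bin entered where enough libraries held enough counts (edgeR's filterByExpr). A bin that enters through its higher group alone has to differ, so the counts of calls are given as a description. At 10000 cells 5 locus bins were tested between H3K4me3 and CTCF, and 4 were called, 1 higher and 3 lower in H3K4me3. Of 44023 bins tested genome-wide, 83.4% were called, 53.9% higher and 29.4% lower. The scaling moves that split, since 64.7% of all calls were higher in H3K4me3 by library totals, 50.1% with TMM factors and 41.6% with DESeq2 size factors, while the median log2 fold change shifted by -0.95 and -1.19. Of the 4 bins beside H19 the fourth one was tested, chr7:142581421-142582420, with 1, 1 and 4 counts of H3K4me3 and 35, 37 and 31 of CTCF at 10000 cells. Its log2 fold change was -2.51 ± 0.45 (SE, edgeR adjusted p = 2.31e-07), and over 10 other settings the value lay between -3.74 and -2.03. The bin entered through its CTCF counts, so these values and the p describe it and do not test it. Without H3K4me3 replicate 1, 2 or 3 the filter admitted more locus bins, and 10 of 14, 10 of 15 and 8 of 16 were called. Over all bins 28571 were then higher and 19514 lower of 71734, 27981 and 18958 of 71058, and 28524 and 19703 of 71583. Without CTCF replicate 1, 2 or 3, 3, 4 and 3 of 4 locus bins were called. Over all bins 21701 were then higher and 7429 lower of 32495, 21719 and 7451 of 32455, and 21824 and 7324 of 32312. The bin higher in H3K4me3, chr7:142475421-142476420, lies in Lsp1, a leukocyte-specific actin-binding protein gene at the edge of the locus. H3K4me3 stood there at 11.1, 13.3 and 16.3 at 10000 cells, against 1.06, 2.51 and 1.29 for CTCF (log2 fold change 2.96 ± 0.43, edgeR adjusted p = 1.23e-08). It ranked 1 in the locus for H3K4me3 and for H3K27ac. This bin entered through its H3K4me3 counts, so its fold change and p likewise describe it and do not test it.

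The other calls lie on the H19 side. In chr7:142497421-142498420, which lies in Prr33 and next to Tnnt3, the gene of fast skeletal troponin T, H3K4me3 stood at 3.71, 2.67 and 3.63 and CTCF at 14.9, 16.6 and 14.2 at 10000 cells. The log2 fold change was -2.20 ± 0.47 (edgeR adjusted p = 1.24e-05). In chr7:142522421-142523420, between Tnnt3 and Mrpl23, H3K4me3 stood at 3.71, 1.33 and 1.82 and CTCF at 9.57, 11 and 10.4 (-2.20 ± 0.57, edgeR adjusted p = 2.66e-04). Both bins entered through their CTCF counts, so these values and p-values describe them and do not test them. The bin of the Mrpl23 start, chr7:142532421-142533420, was the highest of the locus for CTCF and the second for H3K4me3. Mrpl23 encodes a protein of the mitochondrial ribosome. H3K4me3 stood there at 9.29, 13.3 and 12.7 at 10000 cells and CTCF at 18.6, 16.6 and 21.4, which do not overlap (-0.64 ± 0.31, edgeR adjusted p = 0.0576; -1.60 with TMM factors and -1.86 with DESeq2, both called). At 1000 cells it was the only locus bin tested, at 3.66, 9.99 and 10.0 for H3K4me3 and 16.5, 19.4 and 20.7 for CTCF (-1.15 ± 0.47, edgeR adjusted p = 0.0174). It entered there through its CTCF counts, so this p describes it and does not test it. Of 16589 bins tested, 91.4% were called, 71.9% higher and 19.5% lower in H3K4me3. Without H3K4me3 replicate 1 the call was lost (-0.92), and without any 1 of the CTCF libraries the bin was not tested. Without H3K4me3 replicate 1, 2 or 3, 3 of 4, 5 of 5 and 4 of 4 locus bins were called. Over all bins 15601 were then higher and 7972 lower of 28385, 15094 and 7285 of 28260, and 15469 and 7477 of 28605. At 1000 cells 78.7% of all calls were higher by library totals, 43.9% with TMM factors and 21.5% with DESeq2 size factors, with the median shifted by -2.09 and -2.20. Both targets were thus high in the bin that holds the printed Mrpl23 promoter, whereas over the 4 bins beside H19 CTCF had group means of 11.4 and 11.6 and H3K4me3 of 1.04 and 2.07, at 1000 and 10000 cells.

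With bins admitted on 10 counts over the libraries, each of the 4 bins beside H19 was lower in H3K4me3 at both cell numbers. These 4 bins were named for their high CTCF and reach 10 counts through CTCF alone. Their direction was thus set beforehand, and their fold changes and p-values below describe them and do not test them. Under this filter 13 of 95 locus bins were called at 10000 cells, 1 higher and 12 lower, against 11.2% of all bins (6.34% higher, 4.88% lower). At 1000 cells 12 of 38 were called, 2 higher and 10 lower, against 14.2% of all bins (8.73% higher, 5.51% lower). In windows of 5 kb, 15 of 18 locus windows were called at 10000 cells, 1 higher and 14 lower, against 55.7% of all windows (23.9% higher, 31.8% lower), and 4 of 4 at 1000 cells, all lower, against 70.5% (36.8% higher, 33.7% lower). Of the 4 bins beside H19, those with H3K4me3 counts at 10000 cells had log2 fold changes between -1.52 ± 0.51 (edgeR adjusted p = 0.0295, chr7:142579421-142580420) and -2.73 ± 0.63 (edgeR adjusted p = 2.69e-04, chr7:142580421-142581420). Other bins lower in H3K4me3 lay in Mrpl23, in Gm39116 (a long non-coding RNA gene), beyond Igf2 (chr7:142671421-142672420) and in the outer Igf2-side flank (chr7:142799421-142800420). At 1000 cells the shared Igf2 and Igf2os bin was called higher in H3K4me3 (3.00 ± 0.98, edgeR adjusted p = 0.0195), on the 11 counts of replicate 2 and none in the other H3K4me3 libraries. H3K27ac and Pol2S2P had no locus bin with enough counts at either cell number (65.5% and 77.5% of 18663 and 1772 bins called elsewhere). Admitted on 10 counts, 42 and 7 locus bins were tested and edgeR called 0, with 3 and 0 at an unadjusted p under 0.05, against 1.88% and 1.22% of all bins called. DESeq2 was run with filterByExpr alone, which left no locus bin. The highest locus bin for Pol2S2P, chr7:142541421-142542420, lies between Mrpl23 and Nctc1. H3K27ac stood there at 4.19, 2.62 and 3.62 in 1000 cells and Pol2S2P at 8.66, 6.66 and 5.53, which do not overlap. At 100 cells H3K27ac stood at 2.02, 14.2 and 2.27 and Pol2S2P at 5.0, 3.34 and 2.1.

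The stretch of 16 bins between Nctc1 and H19 was low for each target, from 0.461 ± 0.286 for H3K4me3 at 1000 cells to 0.717 ± 0.0535 for CTCF at 10000 cells, and between 0.268 and 0.617 for H3K27ac and Pol2S2P group means.

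Gene by gene, with 1 kb on each side, H19 passed the filter on low counts in 0 of 4 comparisons and Igf2 in 1. Igf2 at 10000 cells gave a log2 fold change of H3K4me3 over CTCF of -0.63 ± 0.45 (edgeR adjusted p = 0.203, with 71.9% of 27304 genes called, 40.5% higher and 31.4% lower). Without that filter H19 gave -1.18 ± 0.53 at 10000 cells (edgeR adjusted p = 0.058) and -1.64 ± 0.68 at 1000 cells (edgeR adjusted p = 0.0466), on 8 and 5 counts of H3K4me3 against 54 and 44 of CTCF. The margin takes in the first bin of the CTCF rise, and the H19 gene body alone held 16 and 24 of these CTCF counts. In those fits 19.3% and 13.0% of all genes were lower in H3K4me3. H3K27ac against Pol2S2P gave 0.47 ± 0.82 for H19 and -0.18 ± 0.59 for Igf2 at 1000 cells, neither called. Genes entered by the same filter as bins, so a gene that enters through its higher group alone has to differ. The counts of called genes, here and for the IGF list, are therefore given as a description. Prr33 and Tnnt3 overlap, and with the margin both take in the CTCF bin chr7:142497421-142498420, so their values share counts. Of the 14 locus genes 8 were tested at 10000 cells, and 6 were lower in H3K4me3 than in CTCF. Tnnt3 (-1.43 ± 0.28), Prr33 (-1.60 ± 0.27), Gm33148, a non-coding gene inside the interval (-1.71 ± 0.30), Gm39116 (-1.73 ± 0.21), Nctc1 (-0.81 ± 0.23) and Mrpl23 (-0.68 ± 0.22) were lower. Without H3K4me3 replicate 1 the Mrpl23 call was lost (-0.48), as it was over both gene ends (-0.35). Lsp1 was higher in H3K4me3 (0.72 ± 0.12, edgeR adjusted p = 1.26e-08), a call lost over both gene ends (0.09). At 1000 cells 4 of 7 tested genes were lower in H3K4me3 and 0 higher, where 67% of 22716 genes were called, 41.3% higher and 25.8% lower. Tnnt3 gave -1.87 ± 0.45, and Prr33 -1.46 ± 0.42, a call lost without H3K4me3 replicate 2 (-0.89). Gm33148 gave -0.30 ± 0.37, not called, and -1.36 without H3K4me3 replicate 2, called. For H3K27ac over Pol2S2P at 1000 cells, Lsp1 (0.74 ± 0.13) and Nctc1 (0.83 ± 0.28, edgeR adjusted p = 0.0132) were called higher out of 7 tested, with 39.3% of 27187 genes called, 13.1% higher and 26.2% lower. At 100 cells Lsp1 alone was tested (1.51 ± 0.22, edgeR adjusted p = 1.48e-09, with 32.7% of 18405 genes called, 11.8% higher and 20.9% lower). The Nctc1 call was lost without H3K27ac replicate 2 (0.63) and without Pol2S2P replicate 2 (0.72).

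The genes that act with IGF2 were read from a list of 22 ligands, receptors, adaptors, binding proteins and regulators. At 10000 cells 7 were higher and 11 lower in H3K4me3 than in CTCF out of 22 tested, against 40.5% and 31.4% of all genes. At 1000 cells the counts were 7 and 11 out of 21, against 41.3% and 25.8% of all genes. The median log2 fold changes were -0.24 and -0.35, against 0.03 and 0.17 over all genes. With TMM factors the counts were 6 higher and 12 lower at 10000 cells (36.8% and 38.4% of all genes) and 2 and 13 at 1000 cells (34.8% and 35.3%), where they shift the median of all genes by -0.19 and -0.28. Counted over both gene ends more list genes were higher than lower, while the list median stayed below that of all genes. At 10000 cells 9 were then higher and 5 lower out of 17 tested (61% and 16.2% of all genes; median 0.41, against 1.11 over all genes), and at 1000 cells 6 and 2 out of 10 (71.5% and 10.8%; median 0.96, against 1.53). Of all calls, 56.3% and 61.6% were higher by library totals, and 48.9% and 49.6% with TMM factors. The other ligand, Igf1, gave -0.38 ± 0.11 at 10000 cells (called). Of the receptors, Igf1r, through which IGF2 signals, gave 0.26 ± 0.07 at 10000 cells, a call lost with TMM factors (0.07), and 0.22 ± 0.10 at 1000 cells, where TMM factors gave -0.06. Igf2r, which clears IGF2 and is itself imprinted in mice, gave -0.15 ± 0.13 at 10000 cells (edgeR adjusted p = 0.287; -0.34 with TMM factors, called), and the insulin receptor gene Insr gave 0.20 ± 0.10, not called. Irs1, an adaptor of the insulin and IGF1 receptors, had a density of 12.9 ± 0.116 in H3K4me3 and 2.81 ± 0.131 in CTCF at 10000 cells (2.20 ± 0.06, edgeR adjusted p = 4.17e-89). The adaptor Irs2 (0.95 ± 0.14) and the kinase Akt1 (0.91 ± 0.14) lay on the same side at 10000 cells.

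The binding proteins, which carry IGFs outside the cell, split. Igfbp6, which prefers IGF2, stood at 12.4 ± 0.305 in H3K4me3 and 6.88 ± 0.607 in CTCF at 10000 cells (0.85 ± 0.14, edgeR adjusted p = 4.29e-08), and Igfbp2 gave 0.98 ± 0.16. Igfbp3 stood at 1.80 ± 0.26 in H3K4me3 and 8.52 ± 1.01 in CTCF (-2.23 ± 0.19, edgeR adjusted p = 1.56e-23). Its neighbour Igfbp1 gave -2.78 ± 0.34, Igfbp4 -1.26 ± 0.21 and Igfbp5 -1.07 ± 0.17. The proteases that cut binding proteins, Pappa (-0.34 ± 0.07) and Pappa2 (-0.84 ± 0.08), lay on the CTCF side over their whole length, whereas over both ends of Pappa alone the value was 0.95. The imprinted genes Grb10, an adaptor that dampens receptor signalling, and Plagl1, a zinc-finger factor, gave -1.10 ± 0.10 and -1.0 ± 0.22. The mRNA-binding proteins Igf2bp1 (-0.68 ± 0.13) and Igf2bp3 (-0.40 ± 0.10) were lower and Igf2bp2 (0.53 ± 0.08) higher in H3K4me3.

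For H3K27ac over Pol2S2P, 9 of 21 tested list genes were higher and 3 lower at 1000 cells, against 13.1% and 26.2% of all genes. At 100 cells the counts were 6 and 2 of 19, against 11.8% and 20.9% of all genes. The median log2 fold changes were 0.12 and 0.39, against -0.18 and -0.20 over all genes. Over all genes 33.2% of calls at 1000 cells were higher by library totals. With TMM factors, which shift the median by 0.19, the share was 53.2% (36% and 56.2% at 100 cells), and 9 list genes were higher and 1 lower (19.3% and 17% of all genes). Igfbp6 stood at 7.35 ± 0.965 in H3K27ac and 4.68 ± 0.484 in Pol2S2P at 1000 cells (0.65 ± 0.18, edgeR adjusted p = 0.00263). Igfbp3 gave 1.27 ± 0.41, a call lost without H3K27ac replicate 2 (1.12) or Pol2S2P replicate 2 (1.01). Pappa gave 0.82 ± 0.07, Pappa2 0.73 ± 0.07, Irs2 0.63 ± 0.14 and Igf1r 0.31 ± 0.07. Igf2bp2 (-0.69 ± 0.08), Akt1 (-0.59 ± 0.19) and Irs1 (-0.36 ± 0.08) were lower in H3K27ac, and with TMM factors the calls of Akt1 (-0.40) and Irs1 (-0.17) were lost. Igf2 itself carried 15 counts of H3K27ac and 19 of Pol2S2P at 1000 cells. Igf1r carried 1717 and 1546 over a longer gene, at densities of 1.76 ± 0.0629 and 1.41 ± 0.0248.

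**Figure D5:**
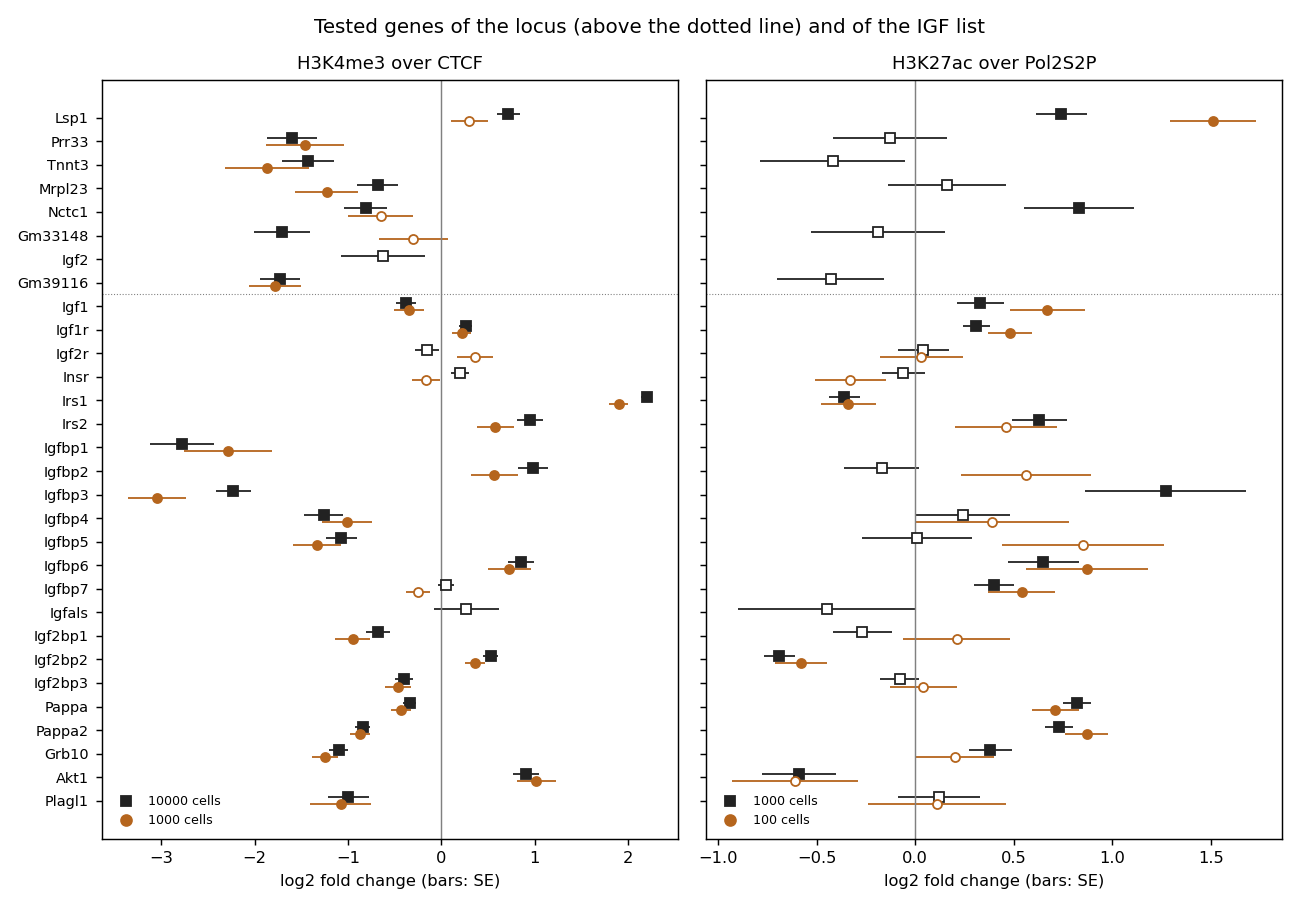
Log2 fold change (bars: SE) of H3K4me3 over CTCF (left) and H3K27ac over Pol2S2P (right) for the tested locus genes, above the dotted line, and IGF list genes. Squares are the higher and circles the lower number of cells, and filled symbols passed an adjusted p of 0.05 in edgeR. Igf2 is open at -0.63 on the left, where Irs1 reaches 2.20 at 10000 cells and Igfbp3 -3.05 at 1000 cells.

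CTCF at the locus was then compared between dual and single staining, 10000 cells each. In the first 5 kb of the interval the density was 9.89, 10.3 and 8.54 with dual staining and 8.57 and 7.83 with CTCF alone. Of 23 locus bins tested between dual and single staining, edgeR called 0, with 1 at an unadjusted p under 0.05, and DESeq2 called 0, against 0.0968% of 82620 bins genome-wide in edgeR. For the 4 bins beside H19 the dual over single log2 fold changes were 0.19 ± 0.42, 0.54 ± 0.30, 0.01 ± 0.26 and 0.20 ± 0.21, and over all settings run lay between -0.28 and 0.68. A missed threshold does not show equal levels. Pol2S2P with dual and single staining had no locus bin with enough counts (27.4% of 36611 bins called elsewhere), and over Igf2 stood at 0.304, 0.219 and 0.25 with dual and 0.275 and 0.284 with single staining.

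Among 40871 genes with at least 50 counts, those most like H19 over the 10 groups were 4930500F04Rik, Asb2, Gimap3, BC107364 and Npbwr1, by root mean square differences of 0.25 to 0.29 in log2(density + 0.1). Those most like Igf2 were Gm5124, Cd40lg, 1700100I10Rik, Elmod1 and Stfa3 (0.19 to 0.25). Asb2 had densities of 2.31 in CTCF and 0.92 in H3K4me3 at 10000 cells, and Cd40lg 0.523 and 0.356. The measure compares levels per length and nothing else.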

How the data were processed

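The authors deposited 1 table of raw read counts per 1 kb bin, with 2728634 bins. Per the submitters' processing notes the tools were bcl2fastq, HISAT2 2.1.0 and deepTools 3.3.1, with GRCm38; the treatment of duplicates and of multiply mapped reads is not stated there. Of 34 samples in the labels, 28 matched a column by name and fell into 10 groups; the other 6 are not analysed here, and 4 columns that matched no sample were not used. Library totals ran from 719766 to 6653298 counts, and intervals and floors cover counting error only. The 9 bins above 50 times the genome mean in every group, and bins off the autosomes and X, were left out, which left 2631630.

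Density is a bin's counts over the library's genome mean per bin. Bins, and genes with 1 kb on each side, were tested with edgeR 4.0.16 (quasi-likelihood, filterByExpr, library totals as scale, Benjamini-Hochberg threshold 0.05; R 4.3.3, limma 3.58.1), after a check on simulated counts. The SE given with an edgeR log2 fold change is the size of that value divided by the square root of its quasi-likelihood F statistic. Regions were tested by exact two-sided permutation within number of cells (Python 3.11.15, numpy 2.4.6, scipy 1.17.1). Alternatives were TMM factors, DESeq2 1.42.0, other count filters, 5 kb windows, other limits, gene ends, each replicate left out and a replicate block. Gene positions and promoter sequences are RefSeq's. Named were Igf2, H19, all locus genes, a list of 22 IGF pathway genes, the 3 highest locus bins of each target with all called bins, and the 5 genes nearest to each member. The members and lists were chosen with earlier results of these data known.

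Same-numbered libraries of a dual staining are paired by design, since their names give them as the readouts of 1 stained sample. Over genes, their deviations from the group means had correlations from 0.0393 to 0.0981 for H3K4me3 with CTCF and from 0.122 to 0.141 for H3K27ac with Pol2S2P. Dual and single stainings that share a number are separate samples.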

Additional observations from a re-analysis of the deposited data

How the results depend on the processing

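Of the values and counts that answer a comparison, recomputed under each alternative, 182 were taken as unchanged, 21 lost the call, 18 moved and 1 gained a call. A count was unchanged where its total of calls, both directions together, stayed near the main one, whatever the split. The IGF list for H3K4me3 against CTCF at 10000 cells, 7 higher and 11 lower, thus counts as unchanged at 9 and 5 over both gene ends. A value was unchanged where it kept its side of the threshold, and a change of sign counted only where either setting was called. Of the values of single genes or bins 1264 were unchanged by the rule for values, 66 lost and 17 gained a call and 4 turned. Values that changed sign without a call in either setting can be among the 1264. Over both gene ends Pappa gave 0.95 and 0.08 for H3K4me3 over CTCF at 10000 and 1000 cells, and Igf1r at 1000 cells gave -0.06 with TMM factors and -0.04 with DESeq2. For H3K4me3 against CTCF at 10000 cells, exchanging the limits (150 kb on the H19 side) gave 10 called of 13 tested locus bins, 5 higher and 5 lower. The limits used gave 1 higher and 3 lower of 5, so the split depended on the limits. Of all bins 53.9% were higher and 29.4% lower. The number of called locus bins was 13 with bins of at least 10 counts, 15 in 5 kb windows and 3 to 10 with 1 library left out. At 1000 cells it was 12, 4 and 0 to 5 under the last 3 of these. Pol2S2P with dual against single staining had 1 with the limits exchanged. Counted over both gene ends, 8 genes of the IGF list were called for H3K4me3 against CTCF at 1000 cells (6 higher and 2 lower), and 2 (1 higher and 1 lower) and 0 for H3K27ac against Pol2S2P at 1000 and 100 cells, where the construction tests fewer genes. For the rest of the interval the difference was -0.341 with totals that left out the top 1% of bins (adjusted exact permutation p = 0.09), and for H19 with 1 kb on each side -1.49 (0.024). Where not stated, the cause was not tested.

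With the replicate block, H3K4me3 minus CTCF was -0.862 in the H19-side flank, -8.24 in the first 5 kb of the interval and -0.816 in the Igf2-side flank, and H3K27ac minus Pol2S2P 0.436 in the H19-side flank, each with an adjusted exact sign-flip p of 0.0938. Each of these had the smallest sign-flip p that the pairs allow, 0.0312 before adjustment. The rest of the interval gave -0.382 (0.15). The block changed no other call. With 1 replicate number left out these 5 differences ran from -0.876 to -0.844, -8.68 to -7.57, -0.855 to -0.771, 0.371 to 0.485 and -0.444 to -0.336, in a design too small to pass the threshold. Few counts in a bin, 0 to 3 in many libraries, limit what single bins can show.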
